A study of Mus musculus with 8 samples.

Results

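The genes examined here are the D cyclins, their kinases, the inhibitors of these kinases and the pocket proteins that the kinases phosphorylate. The 10 members are Ccnd1, Ccnd2 and Ccnd3 (D cyclins), Cdk4 and Cdk6 (kinases), Cdkn1a, Cdkn1b and Cdkn2c (inhibitors p21, p27 and p18) and Rb1 and Rbl2 (pocket proteins pRB and p130). They were matched by gene symbol, ignoring case, and where a symbol was carried by several loci the locus with the highest mean level was taken. Each of the 10 was found among the 80155 loci of the files, 39614 of which are annotated with a gene symbol, and each passed the filter on low values. RNA-seq had been made from hearts of male Hsd:ICR(CD-1) mice, an outbred stock, 4 at postnatal day 1 (P1) and 4 at postnatal day 7 (P7). The labels name no treatment and no genetic change in either stage. Every heart came from a different mouse and gave 1 library, after the atrial appendages had been taken off, so that the RNA is that of all cell types left in the organ. P-values therefore rest on the spread between these 8 hearts, moderated for each locus towards that of loci with a like level. The labels give no litter or batch, so a difference of that kind between the stages could not be told apart from age.

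As background, D cyclins are made when a cell receives growth signals and switch on CDK4 and CDK6. These kinases phosphorylate the pocket proteins, which then release E2F transcription factors, and the E2F factors turn on the genes of DNA replication. INK4 proteins such as p18 bind CDK4 and CDK6 directly, whereas Cip/Kip proteins such as p21 and p27 bind cyclin-kinase complexes and are best known for blocking CDK2. The mouse heart is known for the withdrawal of its muscle cells from the cell cycle in the days after birth, and this set of genes is the gate at which a cell in G1 phase is admitted to S phase or held back.

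Of the 10 members, 3 were differentially expressed (DEG) between the stages, and these were the 3 inhibitors. Cdkn1a, Cdkn1b and Cdkn2c rose in P7 hearts, with ratios of mean FPKM between 1.85 and 2.20. These calls rest on all 8 hearts, and each held in at most 1 of the 8 fits that left out a heart. No D cyclin, kinase or pocket protein passed the test, and 0 members were DEG and lower by limma (0 at an unadjusted p under 0.05, against 6 higher). FPKM is the number of fragments of a locus per length of the locus, relative to all mapped fragments of the library. DEG means a Benjamini-Hochberg adjusted p under 0.05 by limma on log2(FPKM + 1), adjusted over all 43172 tested loci, and mean FPKM at least 1.5 times higher in 1 stage than in the other. Among the 17960 tested annotated loci, 7.74% were DEG and higher in P7 and 0.401% were DEG and lower. At an unadjusted p under 0.05 by limma, 5328 of these loci differed in either direction. Since the members were chosen with earlier results of these data known, their counts are given beside these values without a test.

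The 3 inhibitors that rose are shown by the 250 bases that precede their transcription starts in the RefSeq promoter table for GRCm38.p6, because they are the members that rose. Entries were found for 7 of the 10 members, 10 starts in all, and none for Ccnd1, Ccnd2 and Rb1. Capitals mark a GC box (GGGCGG, on either strand) and, at the first start of Cdkn1a, a pair of p53 core letters (CATG, any 6 bases and CATG again, the same on both strands). Each sequence reads 5′ to 3′ along the strand of the gene.
Cdkn1a, start 1, chr17:29090729-29090978, plus strand: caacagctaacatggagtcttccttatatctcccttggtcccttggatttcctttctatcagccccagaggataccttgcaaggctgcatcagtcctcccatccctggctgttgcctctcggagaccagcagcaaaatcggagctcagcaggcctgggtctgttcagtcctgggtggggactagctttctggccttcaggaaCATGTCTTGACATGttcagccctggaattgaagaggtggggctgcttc
Cdkn1a, start 2, chr17:29093519-29093768, plus strand: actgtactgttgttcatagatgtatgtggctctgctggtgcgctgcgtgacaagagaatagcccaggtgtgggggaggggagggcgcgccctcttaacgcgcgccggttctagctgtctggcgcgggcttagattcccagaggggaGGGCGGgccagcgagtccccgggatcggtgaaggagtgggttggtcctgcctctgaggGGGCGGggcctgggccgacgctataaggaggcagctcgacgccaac
Cdkn1b, start 1, chr6:134920151-134920400, plus strand: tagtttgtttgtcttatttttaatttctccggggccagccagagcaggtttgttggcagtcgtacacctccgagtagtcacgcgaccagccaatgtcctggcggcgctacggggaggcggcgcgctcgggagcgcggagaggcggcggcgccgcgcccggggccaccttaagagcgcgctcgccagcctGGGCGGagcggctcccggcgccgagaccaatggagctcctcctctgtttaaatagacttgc
Cdkn2c, start 1, chr4:109665373-109665622, minus strand: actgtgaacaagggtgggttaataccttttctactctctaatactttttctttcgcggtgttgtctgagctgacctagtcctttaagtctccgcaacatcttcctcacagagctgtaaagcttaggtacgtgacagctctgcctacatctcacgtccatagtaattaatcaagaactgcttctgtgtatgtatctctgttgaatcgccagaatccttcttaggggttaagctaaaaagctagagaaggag
Cdkn2c, start 2, chr4:109666757-109667006, minus strand: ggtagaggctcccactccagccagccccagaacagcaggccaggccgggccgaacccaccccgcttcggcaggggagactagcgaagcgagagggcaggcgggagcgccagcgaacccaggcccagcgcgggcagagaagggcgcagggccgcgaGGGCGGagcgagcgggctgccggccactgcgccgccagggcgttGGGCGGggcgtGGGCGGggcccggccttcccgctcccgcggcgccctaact

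In these windows the GC box letters stood at the second start of Cdkn1a, at the start of Cdkn1b and at the second start of Cdkn2c, and 32.7% of the 32851 RefSeq windows of this length hold them. The p53 letters, searched for after the sequence had been seen, began 48 bases before the first start of Cdkn1a. They occur in 0.49% of all windows, but as the letters were chosen with this sequence in view, that share does not measure how unusual the match is. While p53 is the textbook activator of Cdkn1a, its part in the change of Cdkn1a was not tested. FPKM per locus does not tell which start was used. An E2F motif (TTTNNCGC, in 4.28% of windows), a CHR motif (TTTGAA, 16.0%), a FOXO motif (TGTTTAC, 3.17%) and a TATA box (TATAAA, 12.4%) were searched on both strands as well. Among the members the E2F and TATA letters occurred only in the window of Cdk6, the FOXO letters only in that of the first start of Ccnd3 and the CHR letters only in that of Rbl2. The windows of Cdk4 and of both starts of Ccnd3 held GC boxes too. A match describes these letters and is not evidence that a factor binds there.

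The values of the members follow by role, with the D cyclins first. Ccnd1, the cyclin classically induced by mitogens, lies on chromosome 7 of GRCm38 (144929931 to 144939925, minus strand). Its FPKM in P1 replicates 1 to 4 was 18.6, 15.7, 13.3 and 23.1, and in P7 replicates 1 to 4 it was 11.5, 16.4, 31.2 and 22.2. The P7 hearts thus held both the lowest and the highest value of the 8, and the P1 values lay between them. The log2 difference on the log2(FPKM + 1) scale was 0.13 (standard error 0.28, 95% interval from -0.47 to 0.74, limma adjusted p = 0.784). Its sign depended on the scaling and on 1 heart, since it was -0.097 after median-ratio scaling, in which each heart is divided by its median ratio to the mean heart over annotated loci, and -0.095 without P7 replicate 3.

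**Figure D1:**
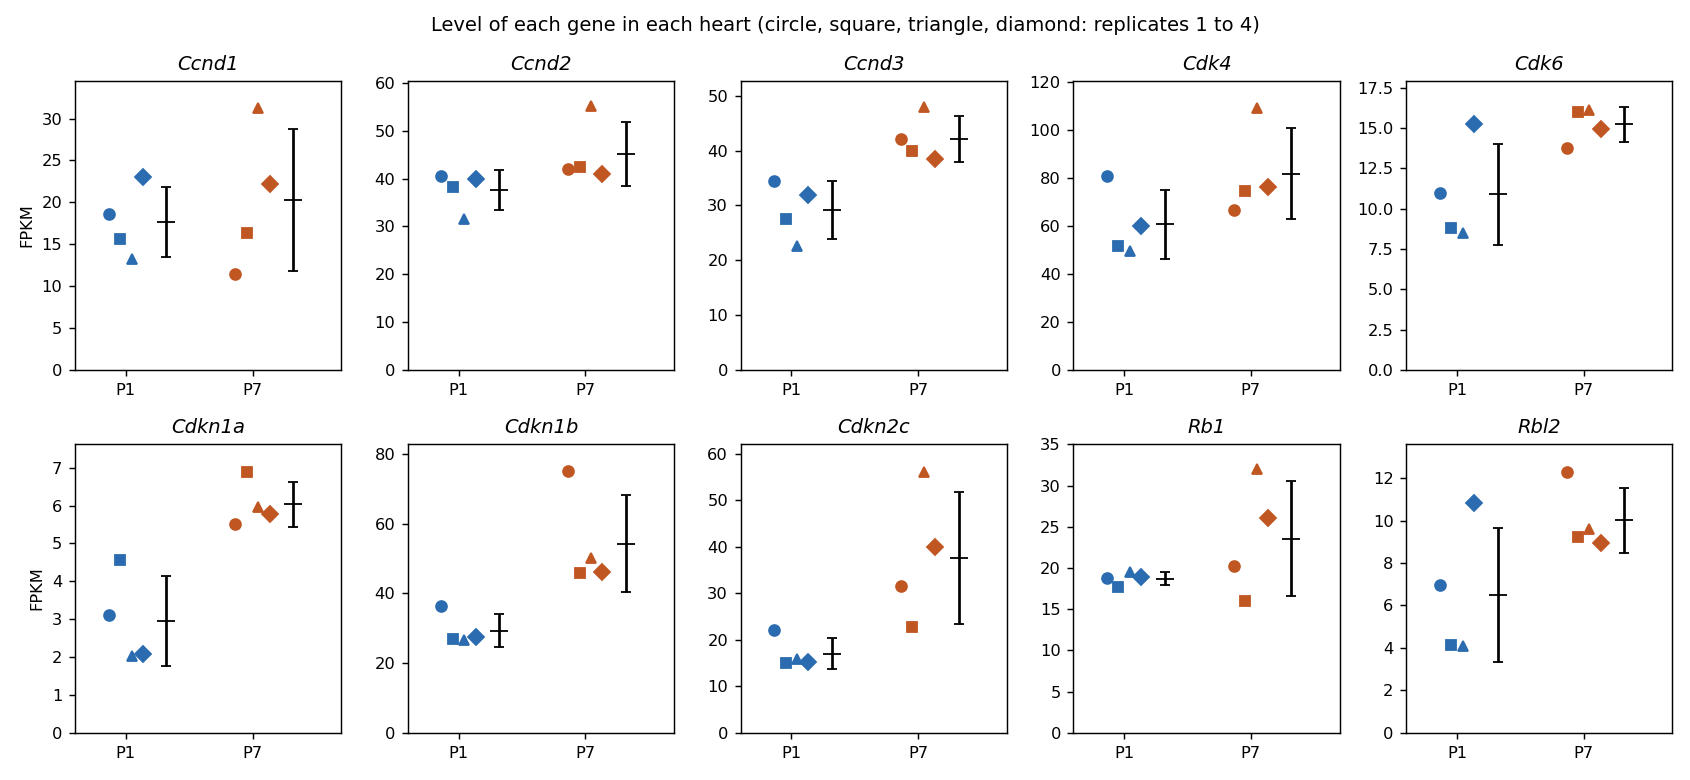
FPKM of the 10 members (y axis, linear from 0, 1 panel per gene) in the P1 hearts (blue) and P7 hearts (orange). Each symbol is 1 heart, with the symbol giving its replicate number, and the bar is the mean ± SD of 4 hearts. The P7 hearts lie above all P1 hearts for Ccnd2, Ccnd3, Cdkn1a, Cdkn1b and Cdkn2c, and the stages overlap for the other 5.

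Ccnd2 was the D cyclin with the highest FPKM at both stages, and it lies on chromosome 6 (127125162 to 127152193, minus strand). It measured 40.4, 38.3, 31.5 and 40.0 FPKM in P1 replicates 1 to 4, against 42.0, 42.4, 55.2 and 41.0 in P7 replicates 1 to 4. All P7 hearts were above all P1 hearts, but 3 of the P7 values were within 2 FPKM of the highest P1 value and P7 replicate 3 stood apart. Between means of 37.6 ± 4.1 and 45.1 ± 6.7 (SD, n = 4 each) there was a log2 difference of 0.26 (standard error 0.18, 95% interval from -0.14 to 0.65, limma adjusted p = 0.442). After median-ratio scaling it was 0.017 and the stages overlapped.

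Ccnd3, the D cyclin best known from lymphoid cells and muscle, lies on chromosome 17 (47505051 to 47599691, plus strand). The P1 hearts gave 34.5, 27.6, 22.5 and 31.9 FPKM and the P7 hearts 42.2, 39.8, 47.9 and 38.4 FPKM, in replicate order. The stages did not overlap, and the gap between them was 38.4 against 34.5 FPKM. The log2 difference was 0.53 (standard error 0.19, 95% interval from 0.12 to 0.94), which did not pass after adjustment (limma adjusted p = 0.160). This was the largest difference of the 3 D cyclins as deposited, but after correction for the GC content of the transcripts, added after the data had been seen, it was 0.18, below that of Ccnd2 (0.39). The pseudogene Ccnd3-ps was at 0 to 0.183 FPKM in the 8 hearts, so that few fragments were assigned to this copy.

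Within a heart, the mix of D cyclins does not depend on how the heart is scaled, but it can depend on GC content. Transcript GC was 50.9% for Ccnd1, 47.1% for Ccnd2 and 56.7% for Ccnd3. Their log2 differences after GC correction were 0.10, 0.39 and 0.18, and no share was computed after that correction. Ccnd2 made up 44.8 ± 2.5% (SD, n = 4) of the summed D cyclin FPKM in P1 and 42.1 ± 1.6% (SD, n = 4) in P7. The share of Ccnd3 was 34.4 ± 1.6% in P1 (33.4% to 36.9%) and 39.5 ± 3.6% in P7 (35.7% to 44.1%), and 1 P1 heart reached into the range of P7. For Ccnd1 the share was 20.8 ± 2.4% and 18.4 ± 5.1%, with a spread from 12.0% to 23.2% among P7 hearts, and the difference of -2.35 percentage points was -0.22 without P7 replicate 1. All 3 shares overlapped between the stages, and the order Ccnd2, Ccnd3, Ccnd1 held for the mean of each stage.

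The kinase partners of the D cyclins come next. Cdk4 (chromosome 10, 127063534 to 127067920, plus strand) had the highest mean FPKM of the 10 members at both stages. Its values were 81.0, 51.8, 49.8 and 60.1 in P1 replicates 1 to 4 and 66.6, 74.5, 109 and 76.3 in P7 replicates 1 to 4. P1 replicate 1 lay above 3 of the P7 hearts, so the stages overlapped. Means of 60.7 ± 14.3 and 81.7 ± 18.9 (SD, n = 4 each) gave a log2 difference of 0.42 (standard error 0.22, 95% interval from -0.059 to 0.91, limma adjusted p = 0.329).

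Cdk6 (chromosome 5, 3341485 to 3531008, plus strand) was present at a lower FPKM than Cdk4 in every heart. It measured 11.0, 8.82, 8.48 and 15.3 FPKM in the P1 hearts and 13.8, 16.0, 16.1 and 14.9 FPKM in the P7 hearts. A single P1 heart, replicate 4, overlapped the P7 range. The log2 difference was 0.48 (standard error 0.20, 95% interval from 0.040 to 0.92, limma adjusted p = 0.232). Without P1 replicate 4 it was 0.64 and passed (limma adjusted p = 0.0396). Cdk4 held 84.7 ± 3.5% of the summed Cdk4 and Cdk6 FPKM in P1 hearts, and in P7 hearts it held 84.0 ± 2.2% (SD, n = 4 per stage), a difference smaller than either SD that changed sign without P1 replicate 1.

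The inhibitors were the members that rose. Cdkn1a encodes p21, the Cip/Kip inhibitor that p53 induces, and lies on chromosome 17 (29090976 to 29100727, plus strand). It had the lowest FPKM of the 10 members at both stages. The P1 hearts gave 3.12, 4.56, 2.03 and 2.07 FPKM and the P7 hearts 5.52, 6.88, 5.98 and 5.77 FPKM. The P7 hearts were all above the P1 hearts, and P1 replicate 2 came closest. Mean FPKM went from 2.94 ± 1.19 to 6.04 ± 0.59 (SD, n = 4 each), 2.05 times the P1 mean, with a log2 change of 0.88 (standard error 0.22, 95% interval from 0.40 to 1.35, limma adjusted p = 0.0455). At this low level the log2(FPKM + 1) scale understates the change, and a pseudocount of 0.1 gave 1.08. With that pseudocount Cdkn1a was not DEG (limma adjusted p = 0.0508).

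Cdkn1b encodes p27, the Cip/Kip inhibitor that accumulates in resting cells (chromosome 6, 134920401 to 134925513, plus strand). Its FPKM was 36.4, 26.9, 26.5 and 27.6 in P1 replicates 1 to 4 and 75.0, 45.8, 50.2 and 46.3 in P7 replicates 1 to 4. The lowest P7 heart exceeded the highest P1 heart, and replicate 1 was the highest of its stage in both. From 29.4 ± 4.7 to 54.3 ± 13.9 (SD, n = 4 each), the mean rose to 1.85 times its P1 value (log2 change 0.85, standard error 0.21, 95% interval from 0.39 to 1.30, limma adjusted p = 0.0444). By mean FPKM Cdkn1b held rank 3 among the members in P1 and rank 2, after Cdk4, in P7.

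Cdkn2c encodes p18, an INK4 inhibitor that binds CDK4 and CDK6 (chromosome 4, 109660876 to 109667189, minus strand). The P1 hearts measured 22.1, 15.0, 15.8 and 15.3 FPKM, and the P7 hearts 31.6, 22.9, 56.0 and 40.0 FPKM. The P1 values were close together apart from replicate 1, while the P7 values spread widely and P7 replicate 2 was only just above the highest P1 heart. The mean was 17.1 ± 3.4 in P1, against 37.6 ± 14.1 in P7 hearts (SD, n = 4 per stage), a ratio of 2.20 and a log2 change of 1.04 (standard error 0.26, 95% interval from 0.48 to 1.60, limma adjusted p = 0.0442).

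The 3 adjusted p-values lie close to the threshold of 0.05, and the calls depended on single hearts and on the processing. Of the 8 fits that left out 1 heart, Cdkn1a was DEG in 0, Cdkn1b in 1 (without P1 replicate 4, limma adjusted p = 0.0433) and Cdkn2c in 1 (without P7 replicate 2, limma adjusted p = 0.0285). Their log2 changes in these fits stayed positive, from 0.77 to 1.06 for Cdkn1a, from 0.68 to 0.95 for Cdkn1b and from 0.83 to 1.25 for Cdkn2c. After median-ratio scaling no member was DEG, with limma adjusted p of 0.134, 0.0767 and 0.0562 in the same order. GC correction left Cdkn1b as the only DEG, with a log2 change of 1.09 (limma adjusted p = 0.0308), and brought Cdkn2c down to 0.64.

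**Figure D2:**
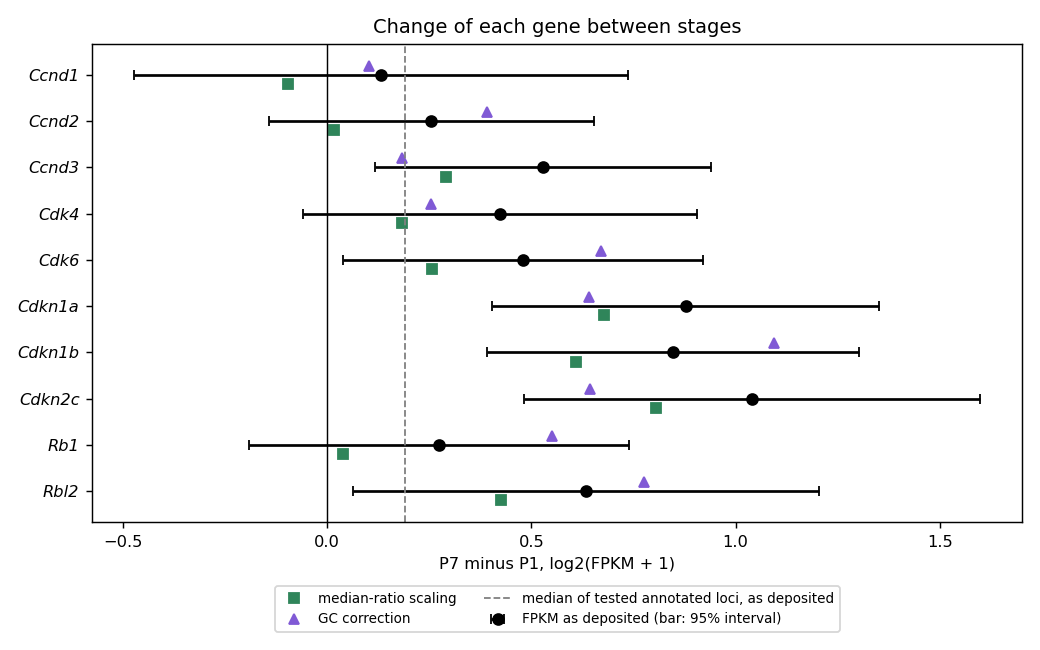
Log2 difference, P7 minus P1, on the log2(FPKM + 1) scale (x axis) for the 10 members (y axis). Black circles with bars are the FPKM as deposited with the unadjusted 95% interval, green squares follow median-ratio scaling, purple triangles follow GC correction, and the dashed line is the median of the tested annotated loci (0.19). The 3 inhibitors lie farthest to the right as deposited, from 0.85 to 1.04, but after GC correction Rbl2 (0.77) and Cdk6 (0.67) lie to the right of Cdkn1a and Cdkn2c, and Ccnd1 changes side of 0 after median-ratio scaling.

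The pocket proteins did not pass the test. Rb1, which encodes pRB (chromosome 14, 73183673 to 73325822, minus strand), measured 18.8, 17.6, 19.5 and 18.9 FPKM in the P1 hearts and 20.2, 16.0, 32.0 and 26.1 FPKM in the P7 hearts. The P1 hearts agreed within 2 FPKM and the P7 hearts lay on both sides of them. The log2 difference was 0.27 (standard error 0.21, 95% interval from -0.19 to 0.74, limma adjusted p = 0.473). Its symbol was carried by 3 loci, of which the one used held 77.1% of the FPKM.

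Rbl2 encodes p130, the pocket protein typical of resting cells (chromosome 8, 91070057 to 91123844, plus strand). The FPKM values were 6.94, 4.15, 4.10 and 10.8 in P1 replicates 1 to 4 and 12.3, 9.23, 9.62 and 8.92 in P7 replicates 1 to 4. P1 replicate 4 lay above 3 of the P7 hearts, and the other P1 hearts lay below all of them. The log2 difference of 0.63 (standard error 0.26, 95% interval from 0.064 to 1.20) missed the threshold with all hearts (limma adjusted p = 0.223) and passed without P1 replicate 4 (0.88, limma adjusted p = 0.0275). Its symbol was shared by 6 loci, of which the one used held 49.4% of the FPKM, and none of the other loci of Rb1 or Rbl2 was DEG.

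Set in order of mean FPKM, the P1 series ran Cdk4, Ccnd2, Cdkn1b, Ccnd3, Rb1, Ccnd1, Cdkn2c, Cdk6, Rbl2 and Cdkn1a, and the P7 series Cdk4, Cdkn1b, Ccnd2, Ccnd3, Cdkn2c, Rb1, Ccnd1, Cdk6, Rbl2 and Cdkn1a. FPKM is per length, which allows genes to be set side by side, but it can also depend on transcript GC (43.1% for Cdkn1b, 56.7% for Ccnd3 and 58.0% for Cdkn2c). Some neighbours could not be told apart, since Cdkn1b exceeded Ccnd3 in 2 of 4 P1 hearts, Ccnd1 exceeded Cdkn2c in 2 of 4 P1 hearts and Ccnd3 exceeded Cdkn2c in 2 of 4 P7 hearts. In P7, Cdk4 exceeded Cdkn1b, Cdkn1b exceeded Ccnd2 and Ccnd2 exceeded Ccnd3 in 3 of 4 hearts each. Among all tested annotated loci the members lay between percentile 45.9 (Cdkn1a) and percentile 94.4 (Cdk4) of mean FPKM.

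A ratio of the 3 inhibitors to the 2 kinases, formed after the values had been seen, was also free of the scaling of a heart. It was not computed after GC correction. That correction gave log2 changes of 0.64, 1.09 and 0.64 for Cdkn1a, Cdkn1b and Cdkn2c, and 0.25 and 0.67 for Cdk4 and Cdk6. The summed FPKM of Cdkn1a, Cdkn1b and Cdkn2c divided by that of Cdk4 and Cdk6 was 0.671, 0.766, 0.761 and 0.596 in P1 replicates 1 to 4. The P7 hearts gave 1.39, 0.835, 0.895 and 1.01. No P7 heart fell into the P1 range, and P7 replicate 1 was the farthest from it. The difference between the stage means was 0.334, and 0.214 without P7 replicate 1. Because the genes were picked with their changes known, this separation is a description only. The share of Cdkn1a in the summed FPKM of Cdkn1a, Cdkn1b, Cdkn1c and Cdkn2c was small and overlapped, at 4.05 ± 1.84% in the P1 hearts and 4.48 ± 1.15% in the P7 hearts (SD, n = 4 per stage), and the sign of this difference turned without P1 replicate 4 or P7 replicate 2. Whether the change of an inhibitor differed from that of a kinase was not tested.

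**Figure D3:**
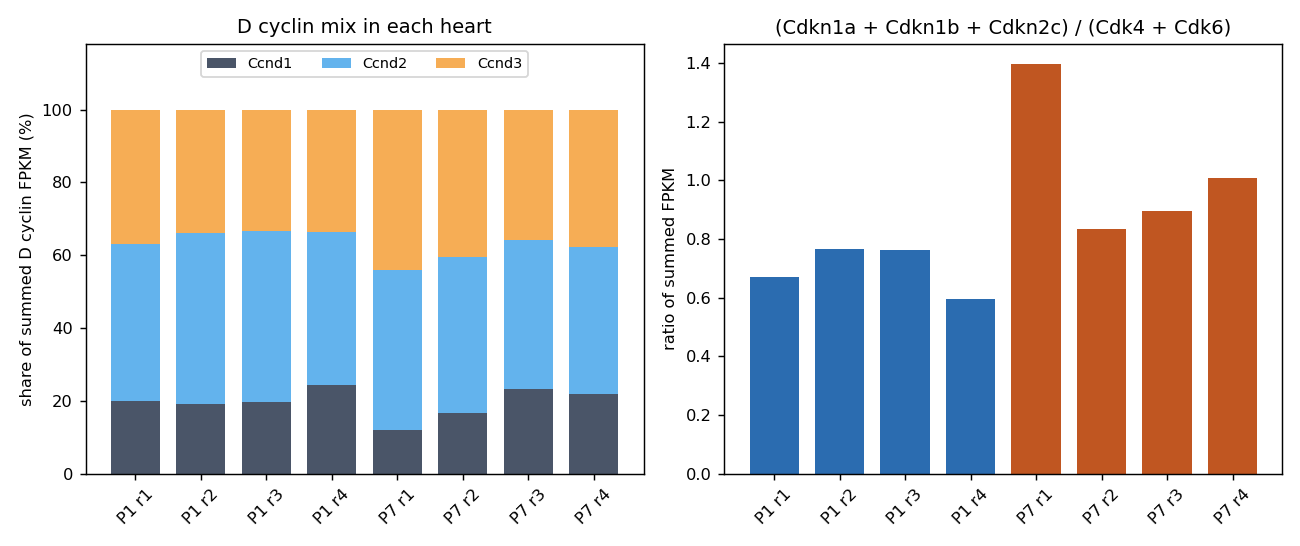
Left, the share of Ccnd1, Ccnd2 and Ccnd3 in their summed FPKM (percent) in each of the 8 hearts (r1 to r4 are replicates). Right, the ratio of summed Cdkn1a, Cdkn1b and Cdkn2c FPKM to summed Cdk4 and Cdk6 FPKM, which is at most 0.766 in P1 hearts (blue) and at least 0.835 in P7 hearts (orange), while the D cyclin shares overlap between the stages.

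All 10 log2 differences were positive with the FPKM as deposited, from 0.13 to 1.04 with a median of 0.50. A positive sign was common in these hearts, since 67.6% of the tested annotated loci had one and their median was 0.19. The members' median lay above it, and 9 of the 10 exceeded it. Median-ratio scaling brought the median of the annotated loci to 0.0095 and that of the members to 0.27, with 9 of 10 positive. In 5 members (Ccnd2, Ccnd3, Cdkn1a, Cdkn1b and Cdkn2c) the lowest P7 heart exceeded the highest P1 heart, as in 17.3% of tested annotated loci. After median-ratio scaling this held for 2 (Cdkn1b and Cdkn2c), beside 15.6% of those loci. Single hearts shaped these values, since P1 replicate 3 had the lowest P1 value in 8 of the 10 members and P7 replicate 3 the highest P7 value in 7. These hearts also had the lowest and the highest size factor, 0.801 and 1.27, and after the scaling they held those positions in 1 and 4 members. Other hearts then stood out, since P1 replicate 4 was the lowest of its stage in 7 of the 10 members and P7 replicate 1 in 6.

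The other genes of the pathway were taken from 8 lists of 72 genes. A locus was found for 71, of which 69 were tested, and 3 were DEG, all higher in P7 (4.35% of those tested). This share was below that of all tested annotated loci, of which 7.74% were DEG and higher in P7. Klf4, a zinc finger factor known to activate Cdkn1a, measured 6.59, 4.58, 2.91 and 6.28 FPKM in P1 hearts and 14.6, 11.0, 16.8 and 15.0 FPKM in P7 hearts. The stages lay far apart, with a log2 change of 1.37 (standard error 0.23, limma adjusted p = 0.0134), and Klf4 remained DEG in 7 of the 8 fits without 1 heart. Eda2r, a receptor of the tumour necrosis factor family and a p53 target, went from 1.61 ± 0.70 to 4.55 ± 1.06 FPKM (SD, n = 4 each; log2 change 1.11, limma adjusted p = 0.0220), and it was DEG in 4 of the 8 fits. Phlda3, a p53 target that inhibits Akt, went from 7.02 ± 0.51 to 13.5 ± 3.9 FPKM (SD, n = 4 each; log2 change 0.83, limma adjusted p = 0.0418), and it was DEG in 1 of the 8 fits. The change of Phlda3 was no longer DEG after median-ratio scaling (0.60, limma adjusted p = 0.0518), after GC correction (0.36, limma adjusted p = 0.385) or after both (0.13, limma adjusted p = 0.592), whereas Klf4 and Eda2r were DEG in these 3 fits.

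Of the inhibitors that are not members, Cdkn1c (p57, the third Cip/Kip protein) had the highest FPKM. It was 24.6, 21.1, 19.4 and 33.3 in P1 and 43.0, 37.6, 47.8 and 35.0 in P7. The stages did not overlap, but the log2 difference of 0.73 (standard error 0.21) was not DEG (limma adjusted p = 0.0750). It became so without P1 replicate 4 (0.88, limma adjusted p = 0.0155), while GC correction reduced it to 0.30 (limma adjusted p = 0.442) and GC correction with median-ratio scaling to 0.058 (limma adjusted p = 0.711). The INK4 genes Cdkn2a and Cdkn2b stayed under 1 FPKM in every heart, with at most 0.0741 and 0.863, and were not tested. The fourth INK4 gene, Cdkn2d, was at 12.1 ± 1.3 and 16.7 ± 4.3 FPKM (SD, n = 4 each), which did not pass the test. Rbl1, which encodes the pocket protein p107 of cycling cells and is named after its values were seen, had a negative difference, from 10.5 ± 2.2 to 7.12 ± 2.26 FPKM (SD, n = 4 each; log2 -0.53, limma adjusted p = 0.244), and fell past the threshold after median-ratio scaling (-0.75, limma adjusted p = 0.0369). It was not DEG after GC correction (-0.27, limma adjusted p = 0.522) or after both (-0.47, limma adjusted p = 0.211).

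Among the 14 E2F target and proliferation genes (such as Mki67, Top2a, Pcna and the Mcm helicase genes) 0 were DEG by limma (1 at an unadjusted p under 0.05), and 12 had a negative log2 difference with a median of -0.12. Median-ratio scaling made all 14 negative with a median of -0.36 and 1 of them, Top2a, DEG. GC correction left 9 negative and 5 positive with a median of -0.11, and after both corrections all 14 were negative with a median of -0.32. Top2a was not DEG in either fit (limma adjusted p of 0.453 and 0.144). Pcna, the sliding clamp of DNA replication and the highest of this list, measured 74.6, 55.1, 55.9 and 67.4 FPKM in P1 hearts and 38.6, 43.4, 88.3 and 74.7 FPKM in P7 hearts. As deposited, P7 replicates 1 and 2 were below all P1 hearts and P7 replicates 3 and 4 were not below the highest of them. The summed FPKM of the list was 195, 194, 413 and 342 in the P7 hearts against 276 to 365 in P1. By this sum as deposited, replicates 1 and 2 of P7 were below all P1 hearts, replicate 3 was above them and replicate 4 lay within their range. P7 replicate 3 also had the highest size factor, 1.27. The positions in Pcna and in the sum can depend on the scaling of a heart, and neither is given here after median-ratio scaling. As deposited, replicates 1 and 2 of P7 were also the lowest of their stage in Ccnd1, Cdk4, Cdkn2c and Rb1, which were picked after the values had been seen. This did not hold for the other members, and P7 replicate 1 was the highest of its stage in Cdkn1b and Rbl2.

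No other list reached more than 2 DEG. The 10 p53 target genes beside Cdkn1a had a median log2 difference of 0.57, with 9 positive, 6 separated between the stages and 2 DEG (Eda2r and Phlda3), while their highest gene, Ccng1, was at 110 ± 14 and 115 ± 47 FPKM. The median of this list was 0.39 after median-ratio scaling, 0.34 after GC correction and 0.11 after both, with 1 DEG (Eda2r) each time. Among all tested annotated loci, 67.6% had a positive difference and 17.3% had every P7 heart above every P1 heart. How many p53 targets stayed separated after median-ratio scaling is not given here. In the 7 regulators of the inhibitors, 1 was DEG (Klf4) with a median of 0.41, and the highest, the homeobox factor Meis1, was at 30.5 ± 9.6 and 35.4 ± 3.6 FPKM. This median was 0.20 after median-ratio scaling. Cyclin E, CDK2 and their activators (7 genes, highest Ccnh, the cyclin of the CDK-activating kinase, at 28.3 ± 2.2 and 27.9 ± 6.2 FPKM), the E2F and DP factors (10 genes, highest Tfdp1 at 12.9 ± 3.5 and 14.7 ± 5.0), the DREAM and MuvB components (7 genes, highest Rbbp4 at 38.4 ± 7.5 and 41.1 ± 6.7) and the 11 tested genes for turnover of D cyclins and p27 (highest Skp1a, a ubiquitin ligase subunit, at 166 ± 11 and 161 ± 24) had 0 DEG by limma, with medians between 0.043 and 0.16 (levels are mean ± SD, n = 4). At an unadjusted p under 0.05 the last 3 lists had 1 gene each and the first had 0. After median-ratio scaling the medians of these 4 lists were negative, from -0.039 to -0.20, and after GC correction they were positive, from 0.11 to 0.24.

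**Figure D4:**
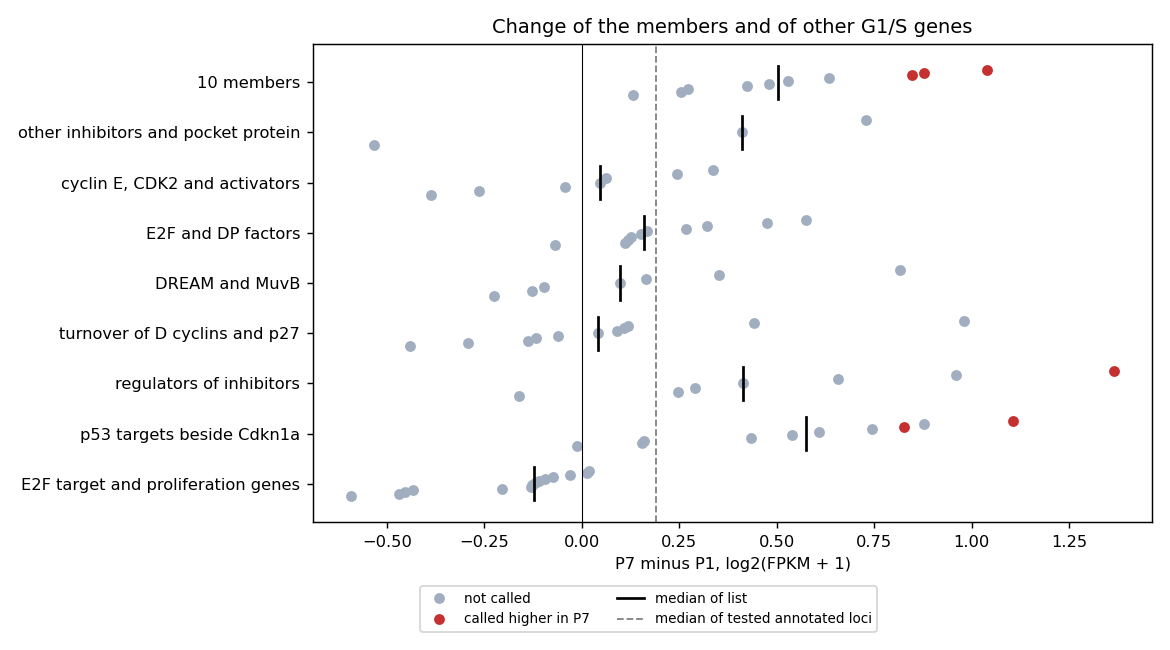
Log2 difference, P7 minus P1, on the log2(FPKM + 1) scale (x axis) for the 10 members and the tested genes of 8 further lists (y axis). Each point is 1 gene, red if DEG and higher in P7, offset vertically for legibility only, with a bar at the median of the list and a dashed line at the median of the tested annotated loci (0.19). The members and the p53 targets have medians of 0.50 and 0.57, and the E2F target genes have the lowest median, -0.12.

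Markers of cell types were read in the same hearts, because whole-heart RNA cannot tell fewer cells of a type from less RNA per cell. The 6 cardiomyocyte markers were high in every heart (summed FPKM 8270 to 15103 in P1 and 8838 to 15789 in P7), and 0 of 6 were DEG by limma (1 of 6 at an unadjusted p under 0.05). Fibroblast markers rose in 4 of 6 (Col1a1, Col3a1, Dcn and Tcf21), with sums of 564 to 1151 FPKM in P1 and 1520 to 1844 in P7, which do not overlap. Endothelial markers rose in 2 of 6 (Cdh5 and Egfl7, whose locus carries further symbols), with sums of 131 to 206 and 238 to 359 FPKM. In this list every P7 heart was below every P1 heart for Emcn, whose mean was 29.2 FPKM in P1 and 21.7 in P7 (log2 -0.43, limma adjusted p = 0.244), and Tek differed by 0.032. Without the locus of Egfl7, a choice made after seeing the data, the endothelial sums overlapped (86.0 to 142 and 108 to 170 FPKM). Of the smooth muscle and pericyte markers Pdgfrb rose (1 of 5), but the sums overlapped as deposited (292 to 604 and 241 to 368 FPKM). Acta2 was separated in the other direction, with means of 281 FPKM in P1 and 148 in P7 (log2 -0.90, limma adjusted p = 0.126). It had the highest mean FPKM of this list at both stages, and the log2 difference of the other 4 was positive. All marker sums are of FPKM as deposited. With size factors from 0.801 to 1.27 their overlap can depend on the scaling, which was not examined here. Leukocyte markers gave 0 DEG of 6 by limma (9.01 to 13.8 and 16.0 to 20.2 FPKM) and red cell markers 0 of 6 (1614 to 3794 and 3705 to 4981 FPKM), with 4 and 5 genes at an unadjusted p under 0.05. Among the 17960 tested annotated loci, 5328 passed this unadjusted p by limma in either direction, and 7.74% were DEG and higher in P7. No marker was at 0 in all hearts. As deposited, the fibroblast and leukocyte sums, and the endothelial sum with Egfl7, were separated between the stages in the same direction as the inhibitors. Their part in the changes of Cdkn1a, Cdkn1b and Cdkn2c was not tested.

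Finally, the annotated loci most like each member over the 8 hearts were listed by Pearson correlation of log2(FPKM + 1), among 7847 loci with a symbol of their own and a mean of at least 5 FPKM. Cdkn1a was nearest to Oxld1, Copz2 and Rara (r from 0.955 to 0.958), Cdkn1b to Gatad2b, Tsc22d3 and Mknk2 (r from 0.982 to 0.995) and Cdkn2c to Id1, Mrps28 and Tmem101 (r from 0.990 to 0.991). For the D cyclins such loci included Stip1, Tubb2a and Lmnb1 (Ccnd1), Pigf, Naa40 and Tmem100 (Ccnd2) and Rab43 and Slc3a2 (Ccnd3). Those near the kinases included Pusl1 and D17Wsu104e (Cdk4) and Lrrc4b, Pskh1 and Gsn (Cdk6), and the pocket proteins were nearest to Mkks, Ebp and Slc16a7 (Rb1) and Jkamp, Tmem234 and Gtpbp2 (Rbl2). With 8 hearts that share the stage difference and the scaling of each heart, and the best of 7847 loci taken, these values only describe likeness.

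Several members share ground with neighbours. In GENCODE M21 a gene on the opposite strand overlaps 8 of the 10, and the span of the locus in the files takes in another symbol for 7, such as Tspan31 at Cdk4, Bysl at Ccnd3, Aktip at Rbl2 and Rcbtb2 at Rb1. Cdkn1b and Cdkn2c have neither. Whether the counting used the strand is not stated, so reads of overlapping genes may be mixed in those values.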

How the data were processed

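Paired-end RNA-seq libraries were made by the authors from ribodepleted total RNA of each heart (ScriptSeq v2 kit). Alignment to GRCm38, summation over features of Ensembl 70 and normalization were done by a provider, and the deposited unit is FPKM per locus; the aligner is not given in the sources used here. The files hold no counts, and the sequencing totals of the libraries were not used here. From the commonest FPKM ratio in 866 low loci, 1 fragment was estimated as worth 1.25 to 1.58 times as much in the other 7 hearts as in P1 replicate 1. Only 31 to 74 of the 866 loci held that ratio, so this is a rough estimate.

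The 43172 loci that reached 1 FPKM in any heart were compared as log2(FPKM + 1), 4 P7 against 4 P1 hearts without covariates, with limma 3.58.1 in R 4.3.3 (lmFit, eBayes with trend, two-sided, Benjamini-Hochberg over all tested loci). DEG required, beside an adjusted p under 0.05, mean FPKM that differed at least 1.5 times. Shares and ratios were given as mean ± SD without a test. Further tables used pandas 2.3.3 and numpy 2.4.6 in Python 3.11.15, and the fit was tested on simulated data.

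The members and gene lists were chosen with earlier results of these data known. Genes named with values were the 10 members, the DEG and the highest gene of each pathway list, and the 3 loci most like each member, of which some are not reported here; others were named after their values were seen. The pathway gene Fbxo31 was not analysed here. Alternatives were another pseudocount, other filters and scalings, a replicate block, other variance settings, loci with 1 symbol, each heart left out (with the filter applied to the remaining 7 hearts), and, added after seeing the data, GC correction (lowess, span 0.3, on GENCODE M21 transcripts; GC known for 85.9% of tested annotated loci). Gene positions are those of GENCODE M21 on GRCm38.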

Additional observations from a re-analysis of the deposited data

Results flagged for a closer look

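Of 54 groups of 4 hearts examined (members, named pathway genes and shares within a heart), 7 had an outlying highest or lowest heart. Its gap to the nearest neighbour, divided by the whole range of the group, passed Dixon's 95% value. Chance gives about 2.7 at 1 in 20. The groups share hearts and genes and are not independent, so no excess over chance is read from this count. In P1, replicate 1 was high in Cdkn1b (gap share 0.893; 36.4 FPKM against 26.5 to 27.6), in Cdkn2c (0.884; 22.1 against 15.0 to 15.8) and in the share of Ccnd3 among the D cyclins (0.882; 36.9% against 33.4% to 33.8%). P1 replicate 4 was high in the share of Ccnd1 (0.867; 24.3% against 19.2% to 19.9%). In P7, replicate 1 was high in Cdkn1b (0.849; 75.0 FPKM against 45.8 to 50.2), and replicate 3 was high in Ccnd2 (0.906; 55.2 against 41.0 to 42.4) and in Phlda3 (0.906; 19.4 against 11.3 to 12.1). Each flagged heart was the highest of its stage, and for Cdkn1b the outlying heart carries the number 1 in both stages. The labels do not say whether this number pairs the hearts.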

How the results depend on the processing

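The calls of the members depended on the processing, and the cause was not tested. The 3 members higher in P7 became 0 with no filter on low values, median-ratio scaling, quantile normalization and eBayes without trend, and 1 with the replicate block, GC correction, GC correction with the block and median-ratio scaling with GC correction. Fits without 1 heart gave 0 to 3 higher (3 without P1 replicate 4, of which Cdkn1b is shared with the fit of all hearts) and 0 lower. Cdkn1a lost its call at log2 changes of 1.08 (pseudocount 0.1), 0.88 (no filter, replicate block, eBayes without trend), 0.68 (median-ratio), 0.69 (quantile), 0.64 (sample quality weights, GC correction with or without the block) and 0.44 (median-ratio with GC correction), and at 0.77 to 1.06 without 1 heart. Cdkn1b lost it at 0.85 (no filter, replicate block, eBayes without trend), 0.61 (median-ratio and quantile) and at 0.68 to 0.95 without 1 heart. Cdkn2c lost it at 1.04 (no filter, eBayes without trend), 0.80 (median-ratio), 0.79 (quantile), 0.64 (GC correction with or without the block), 0.40 (median-ratio with GC correction) and in 7 of the 8 fits without 1 heart, which ran from 0.83 to 1.25, the highest being the fit that kept the call. Over the alternatives the limma adjusted p ran from 0.0111 to 0.337 for Cdkn1a, from 0.0102 to 0.147 for Cdkn1b and from 0.00884 to 0.336 for Cdkn2c.

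Ccnd1 reversed to -0.097 (median-ratio), -0.14 (quantile) and -0.13 (median-ratio with GC correction), and ran from -0.095 to 0.36 without 1 heart. Ccnd3 reversed to -0.060 (median-ratio with GC correction). Without 1 heart Cdk6 ran from 0.38 to 0.64 and Rbl2 from 0.48 to 0.88. The 3 further pathway genes higher in P7 became 0 with no filter and 9 with at least 1 FPKM in every heart, with sample quality weights and with loci of 1 symbol, and 0 to 7 without 1 heart (7 without P1 replicate 4, 0 without P1 replicate 2, 1 without P1 replicate 3 or P7 replicate 1); those lower went from 0 to 2 with median-ratio scaling and quantile normalization (Rbl1 and Top2a). The differences in shares within a heart moved by less than 1 SD, pooled over both stages, but not always on 1 side of 0. No share or ratio was computed after GC correction. Without 1 heart the share difference of Cdk4 ran from -2.34 to 0.43 percentage points (positive without P1 replicate 1), that of Cdkn1a from -0.10 to 1.33 (negative without P1 replicate 4 or P7 replicate 2) and that of Ccnd1 from -3.96 to -0.22 (the last without P7 replicate 1). The difference in the ratio of inhibitors to kinases was 0.214 without P7 replicate 1 and at most 0.401, against 0.334 with all hearts.

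Over all annotated loci, 1390 higher and 72 lower became 1445 and 659 with median-ratio scaling and 1377 and 595 with quantile normalization, and without 1 heart the total ran from 167 (without P1 replicate 2) to 2835 (without P1 replicate 4). It was 231 with no filter, 2573 with 1 FPKM in every heart, 941 with eBayes without trend, 2951 with sample quality weights, 2352 with loci of 1 symbol, 413 with GC correction, 385 with GC correction and the block and 877 with median-ratio scaling and GC correction. The labels do not say whether replicate numbers pair the hearts. Same-numbered hearts had correlations of their deviations from the stage mean of -0.0188, 0.122, -0.102 and -0.027. Only P1 replicate 2 was most like the P7 heart of its own number. With so few hearts these values cannot decide whether the numbers pair them. As a block the replicate numbers left 1 member (Cdkn2c) and 1052 annotated loci in place of 1462.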
